A study of Mus musculus with 468 samples.

Results

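Interferon gamma induced GTPases are 10 genes, Gbp2, Gbp3, Gbp5, Gbp6, Gbp7, Gbp9, Irgm1, Irgm2, Igtp and Iigp1, taken by their gene symbols from the 23180 genes measured in adipose tissue of Diversity Outbred mice. All 10 passed the filter on low counts, as did 18380 genes in all. The Diversity Outbred stock was bred from several inbred founder strains, and nearly every animal carries its own mixture of founder alleles. All were fed a diet rich in fat (45 percent) and sugar. Each mouse gave 1 adipose library, so all libraries form a single group with no replicate of any mouse, and n below is the number of mice unless another is given. The labels give a mouse number and a library number but no sex, generation, age or batch, and every SD below is the spread over mice together with the error of the assay. The adipocyte markers Adipoq (median 2096 CPM, lowest 499.6) and Plin1 (median 1482 CPM, lowest 573.4) were abundant in every library, where CPM is the library-scaled count of a gene after TMM normalization. Libraries held 35.3 M to 137.8 M counts (median 82.04 M). Each p-value measures the spread between these libraries.

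Interferon gamma is a cytokine made mainly by T cells and NK cells. It acts through a cell surface receptor and JAK kinases, and the factor IRF1, which it induces, helps to switch on genes of cell-autonomous defence. Among the strongest of these in mice are the families of large GTPases studied here: guanylate-binding proteins (Gbp), which gather on the vacuoles of intracellular pathogens, and immunity-related GTPases (Irg), which act on the same membranes. Irgm1, Irgm2 and Igtp (also called Irgm3) are regulatory members of the Irg family that guard the cell's own membranes, whereas Iigp1 (Irga6) is an effector that loads onto pathogen vacuoles. Gbp5 is known for its part in inflammasome assembly.

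The genes lie in clusters on the GRCm38 assembly. Gbp5 (ENSMUSG00000105504, chr3:142493978-142522344), Gbp7 (ENSMUSG00000040253, chr3:142530342-142550149), Gbp3 (ENSMUSG00000028268, chr3:142560026-142573209) and Gbp2 (ENSMUSG00000028270, chr3:142620602-142638008) follow each other on the plus strand of chromosome 3. Gbp9 (ENSMUSG00000029298, chr5:105077630-105139539) and Gbp6 (ENSMUSG00000104713, chr5:105270702-105293698) lie on the minus strand of chromosome 5. Irgm1 (ENSMUSG00000046879, chr11:48861968-48871683) is on the minus strand of chromosome 11, and Igtp (ENSMUSG00000078853, chr11:58199556-58207591) and Irgm2 (ENSMUSG00000069874, chr11:58199618-58222782) overlap each other on its plus strand. Iigp1 lies on another chromosome, away from these clusters. In the annotation Gbp9 also overlaps Gbp8 and Gbp4, Gbp6 overlaps Gm43302, and Gbp7 overlaps the processed pseudogene Gm43802.

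Because these genes rose and fell together over the mice, their promoters are shown. No promoter was at hand for Gbp6 and Gbp9, and Iigp1 was left out of the search. RefSeq promoters on GRCm38.p6 were used for the other 7 of the 10 genes. These promoters each run from 250 bases before to 50 bases after an annotated start site. They were searched on both strands for the letters TTCNNNGAA, known as the GAS (gamma interferon activated site) element, and for the letters GAAANNGAAA, a core of the interferon-stimulated response element (ISRE) bound by interferon regulatory factors. All 7 genes had an ISRE core in a promoter, against 3.44% of 32851 mouse promoters of the same length. A GAS match was present in 4 of the 7 (Gbp5, Gbp7, Igtp and Irgm2), against 8.30% of all promoters, and both letters together were present in the same 4, against 0.454% of all. The last 170 bases before the start site are given below, 5′ to 3′ on the strand of the gene, with matches in capitals. A core on the opposite strand appears with TTTC in place of GAAA.
Gbp5, chr3:142496764-142496933 (+ strand): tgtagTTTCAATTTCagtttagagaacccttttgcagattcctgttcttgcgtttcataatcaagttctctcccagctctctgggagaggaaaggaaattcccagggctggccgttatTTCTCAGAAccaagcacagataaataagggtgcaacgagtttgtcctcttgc
Gbp7, chr3:142530166-142530335 (+ strand): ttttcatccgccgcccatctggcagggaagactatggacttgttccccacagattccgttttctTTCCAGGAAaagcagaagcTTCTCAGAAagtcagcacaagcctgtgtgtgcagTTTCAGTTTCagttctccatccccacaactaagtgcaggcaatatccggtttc
Gbp3, chr3:142559874-142560043 (+ strand): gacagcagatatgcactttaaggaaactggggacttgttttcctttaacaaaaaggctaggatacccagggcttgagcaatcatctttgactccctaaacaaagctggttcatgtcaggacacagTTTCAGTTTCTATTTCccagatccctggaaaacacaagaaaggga
Gbp2, chr3:142620493-142620662 (+ strand): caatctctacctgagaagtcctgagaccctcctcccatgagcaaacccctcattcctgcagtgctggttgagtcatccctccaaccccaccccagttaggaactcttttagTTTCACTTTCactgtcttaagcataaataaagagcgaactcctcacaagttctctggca
Irgm1, chr11:48871421-48871590 (- strand): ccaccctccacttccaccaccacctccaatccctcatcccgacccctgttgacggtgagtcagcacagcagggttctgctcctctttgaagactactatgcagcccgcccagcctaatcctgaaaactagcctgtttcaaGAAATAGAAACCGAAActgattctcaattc
Igtp, chr11:58199386-58199555 (+ strand): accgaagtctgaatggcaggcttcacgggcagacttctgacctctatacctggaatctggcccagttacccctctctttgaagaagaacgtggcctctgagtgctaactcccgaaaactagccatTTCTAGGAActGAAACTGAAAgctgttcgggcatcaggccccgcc
Irgm2, chr11:58214807-58214976 (+ strand): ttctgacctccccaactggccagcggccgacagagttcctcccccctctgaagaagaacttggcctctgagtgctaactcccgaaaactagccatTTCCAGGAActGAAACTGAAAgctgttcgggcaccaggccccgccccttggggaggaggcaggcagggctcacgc

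In these windows Gbp3 carried overlapping ISRE cores at -45 and -39 from the start site, and Irgm1 carried overlapping cores at -30 and -24. A further entry of Gbp3, with a later start site, had no match to either motif. Among the windows shown, the start sites of Irgm2 and Gbp5 lay farthest inside the annotated genes. These windows ended at 58214976 (Irgm2) and 142496933 (Gbp5), whereas the genes began at 58199618 and 142493978. Gbp2 had a single core at -59. Igtp and Irgm2 had the same arrangement, a GAS match 2 bases ahead of an ISRE core, and laid side by side on that core 93.8% of 130 bases were identical. Gbp7 had GAS matches at -106 and -87 and an ISRE core at -53, and Gbp5 had its core farther out at -165 and GAS matches at -52 and, beyond the stretch shown, at -245. A match is a run of letters in the reference and not a measured binding site, and alleles of the mice may differ from it.

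Levels were read in CPM, and each gene is given with its lowest, median and highest library. Gbp2 was the most abundant, with 33.2, 76.5 and 807 CPM and a mean of 83.8 ± 46.3 CPM (SD over mice). Gbp6 had 10.8, 42.1 and 841 CPM (mean 49.5 ± 48.2) and Gbp7 17.4, 40.2 and 493.95 CPM (mean 45.2 ± 28.7). Gbp9 had 15.8, 35.1 and 171.1 CPM, with a mean of 37.5 ± 13.5. In these 4 genes the lowest library lay within a few log2 units of the median, whereas the top library stood far above it. Gbp3 had 7.04, 19.4 and 250.5 CPM (mean 22.96 ± 16.9), and Gbp5, the inflammasome-linked member, 4.38, 13.7 and 188.2 CPM (mean 16.0 ± 12.0).

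The regulatory Irg genes were less abundant than Gbp2. Irgm1 had 7.91, 19.6 and 201.04 CPM (mean 21.9 ± 12.2), Igtp 4.13, 12.0 and 699.7 CPM (mean 17.4 ± 35.7), and Irgm2 6.51, 23.1 and 638.99 CPM (mean 28.5 ± 35.5). The effector Iigp1 had 0, 17.3 and 1816 CPM, with a mean of 30.1 ± 92.7 CPM, so its SD was several times its median. Mouse DO180 was the lowest library of Gbp3, Irgm1, Igtp and Irgm2, and mouse DO519 had no Iigp1 count at all, which with 51.9 M counts allows up to 0.0543 CPM at 3 counts. Mouse DO337 was the highest library of all 10 genes.

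Levels of different genes were compared per kilobase of exon, in the order of their median CPM per kilobase, with differences as the mean of log2 CPM per kilobase over libraries. Gbp2 stood above the next gene, Gbp7, in every library, by 2.07 ± 0.38 log2 units (SD over libraries). Gbp7, Gbp6, Gbp9, Irgm2, Gbp3 and Igtp followed without any neighbour differing by more than its spread; Gbp7 exceeded Gbp6, for example, in 54.1% of libraries, by 0.05 ± 0.51. For Gbp3 and Igtp the mean went against the order of the medians, with Gbp3 higher in 45.1% of libraries and a difference of -0.08 ± 0.55. Igtp was above Irgm1 in 99.4% of libraries, by 0.88 ± 0.47 log2 units. Irgm1 and Iigp1 (difference 0.35 ± 1.502) and Iigp1 and Gbp5 (0.39 ± 1.52), at the lower end of the order, differed by less than their spread.

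The spread over mice differed between the genes. The SD of log2 CPM was smallest for Gbp9 (0.43), Irgm1 (0.46), Gbp2 (0.48) and Gbp7 (0.51), and the median over all 18380 genes was 0.46. It was 0.67 to 0.69 for Gbp3, Gbp5, Irgm2 and Gbp6, 0.82 for Igtp and 1.72 for Iigp1. Set beside genes within 0.5 log2 units of the same mean level, every member lay in the upper part, from the 79.3rd percentile for Irgm1 to the 99.2nd for Iigp1. The 95th percentile library exceeded the 5th by 2.38-fold in Irgm1, 5.16-fold in Igtp and 16.1-fold in Iigp1.

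**Figure D1:**
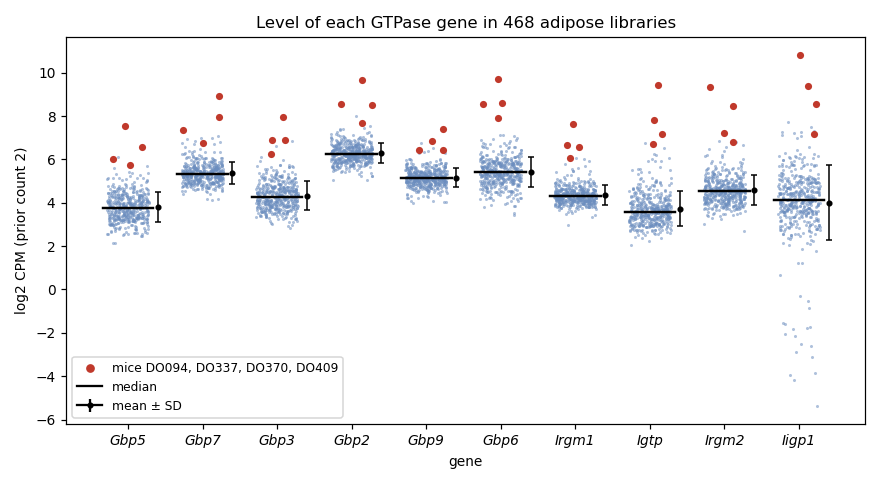
Log2 CPM (y axis) of the 10 GTPase genes (x axis) in all adipose libraries, 1 blue point per mouse, with the median as a bar and the mean ± SD beside it; red points are mice DO094, DO337, DO370 and DO409. Only Iigp1 has a tail of libraries far below the rest, and the red points stand at the top of every gene.

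High values of the 10 genes fell on the same few mice. The 10 highest libraries of each gene made up 24 different mice, of which 10 were among the 10 highest of at least 5 genes and 4 (DO094, DO337, DO370 and DO409) among those of all 10. Mouse DO337 had 10.6 times the median of Gbp2, 58.5 times that of Igtp, 27.6 times that of Irgm2 and 105.2 times that of Iigp1, but 4.88 times that of Gbp9. Mouse DO370 was second in 9 genes, with 358.9 CPM of Gbp2, 228.6 CPM of Igtp and 660 CPM of Iigp1. Mouse DO094 was second in Gbp2, with 375.6 CPM, and had 373.9 CPM of Iigp1. DO409 had 202.1 CPM of Gbp2 and 145.4 CPM of Iigp1.

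The interferon gamma targets Irf1 and Cxcl9 were above their medians in each of these 4 mice as well. Irf1, with a median of 41.7 CPM, had 184.4 CPM in DO337, 108.1 CPM in DO370, 75.3 CPM in DO094 and 77.4 CPM in DO409. The chemokine gene Cxcl9, a classical interferon gamma target, reached 127 CPM in DO094, its highest library, and was lowest among the 4 in DO370 with 85.9 CPM, against a median of 29.0 CPM. The T cell marker Cd3e, with a median of 1.03 CPM, was at 1.16 CPM in DO337 and 0.955 CPM in DO370 but at 3.74 CPM in DO094 and 7.11 CPM in DO409. The NK cell marker Ncr1, with a median of 0.852 CPM, was above it in all 4, with 1.61 CPM in DO337, 2.78 CPM in DO370, 4.59 CPM in DO094 and 2.61 CPM in DO409. For single mice the score of a list is its mean z score, centred and divided by its SD over libraries. On this scale the NK cell score lay between 1.87 and 2.66 in the 4 mice, and the type I interferon score between 2.12 and 3.07. In the other mice among the 10 highest of at least 5 genes the scores varied more. There the NK cell score ran from -0.95 (DO286) to 2.78 (DO060) and the type I interferon score from 0.42 (DO286) to 4.84 (DO487). The transcript of the ligand Ifng did not pass the filter: its median was 0.0381 CPM, 72.4% of libraries had any count, and its highest value, 0.785 CPM from 74 counts, was in DO409. It was 0.253 CPM in DO094 (20 counts), 0.214 CPM in DO337 (18 counts) and 0.0744 CPM in DO370 (6 counts). The part of T and NK cells in the high values was not tested.

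Distributions were then examined for null-like values, below 1/10 of the median of a gene, and for steps. Iigp1 (ENSMUSG00000054072, chr18:60376027-60392634, plus strand) was null-like in 19 libraries (4.06% of all), each below 1.73 CPM, and the other 9 genes in none. Over all 18380 genes 16.8% had at least 5 null-like libraries, and of the 9508 genes averaging 10 CPM or more 2.26% did. The 19 Iigp1 values ran from 0 counts in DO519 to 1.57 CPM in DO275, with a median of 17 counts, and only DO519 and DO200 had at most 3 counts. Gaps were taken only where at least 5 libraries lay on each side. The widest such gap in the ordered Iigp1 values was 0.98 units of log2 CPM with a prior count of 2. This was at the 98.7th percentile of all genes. It lay between DO186 (0.781 CPM) and DO275 (1.57 CPM), with 18 libraries below it. DO275, the highest of the 19, lay above this gap, and several of the libraries below it held clear counts.

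**Figure D2:**
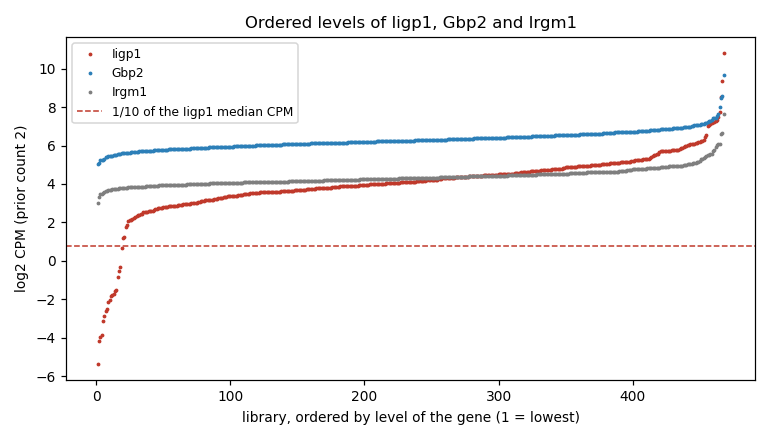
Log2 CPM (y axis) of Iigp1 (red), Gbp2 (blue) and Irgm1 (grey), each ordered from its lowest to its highest library (x axis, rank of the library); the dashed line is 1/10 of the median Iigp1 CPM. Below the line Iigp1 drops steeply in 19 libraries, and Gbp2 and Irgm1 have no such drop.

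In these 19 libraries Gbp2 ran from 43.6 to 155.3 CPM, Irgm1 from 13.0 to 44.7 CPM and Igtp from 7.51 to 74.2 CPM, and mouse DO415 among them had the lowest Gbp6 of all libraries (10.8 CPM). Mouse DO253 is an example, with 155.3 CPM of Gbp2, 74.2 CPM of Igtp and 74.7 CPM of Irgm2 beside 0.666 CPM of Iigp1. The neighbours of Iigp1 on chromosome 18 that encode related GTPases, Gm4951 and F830016B08Rik, each exceeded their own cohort median in 2 of the 19 libraries, and the related Gm4841 did in 5. Of the 5 libraries with null-like F830016B08Rik 4 were among the 19, whereas 0 of the 7 with null-like Gm4951 and 0 of the 1 with null-like Gm4841 were. All 3 genes were low, with cohort medians of 0.585 CPM (F830016B08Rik), 0.440 CPM (Gm4841) and 1.77 CPM (Gm4951). The 4 null-like F830016B08Rik values ran from 0.0140 CPM (DO186) to 0.0570 CPM (DO131). In the 19 libraries 3 counts amount to 0.0301 to 0.0560 CPM, so this overlap rests on very few counts. Shared loss of these genes was not tested. Of the 19 mice 11 had counts of Y chromosome genes and 8 had none, and library totals ran from 51.9 M to 95.5 M counts.

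Whether mixtures of normal distributions gave separate components in the 10 genes depended on the variances allowed. With components of unequal variance each gene was fitted best by 2 components, and in none of the 10 were neighbouring components separate by Ashman's D over 2 (highest 1.47, Gbp2), although 12.0% of all genes had such components. With components of equal variance all 10 passed D over 2, but the share over all genes was not computed for this fit. In the genes other than Iigp1 its upper component held from 0.86% (Gbp6) to 4.2% (Igtp) of libraries. For Iigp1 the fit of unequal variance had a broad component of 11.8% of libraries (mean 2.57, SD 4.04 log2 CPM). Its fit of equal variance had a low component of 3.88% (mean -2.35, SD 1.00 log2 CPM). Several relatives outside the 10 did show separate components with unequal variance. Among them Gvin1, a very large interferon-inducible GTPase, had 55 null-like libraries (D 5.08), Tgtp2 26 (D 6.69) and Gbp2b, which lies in the chromosome 3 cluster, 25 (D 3.74).

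The fit of each gene on mouse number and library number asked whether levels changed along either number. The labels do not say what order or batch the numbers follow. By edgeR's quasi-likelihood test, adjusted over all 18380 genes, none of the 10 genes rose or fell with mouse number, although 11.7% of all genes rose and 12% fell. None rose or fell with library number, with which 0.131% of genes rose and 0.136% fell. None of the 10 reached an unadjusted p under 0.05 in either fit, and DESeq2 and limma also called none. The smallest unadjusted p was 0.248 for mouse number (Gbp2) and 0.527 for library number (Gbp9), both by edgeR. Slopes per 100 mice lay between -0.02 and 0.05 log2 units (SE 0.01 to 0.05). Among the lists, 6 of 7 MHC class II genes rose with mouse number, such as H2-Aa, a chain of the class II molecule, by 0.09 ± 0.02 log2 units per 100 mice. In the interferon gamma pathway 7 of 28 genes rose and none fell, among them the feedback inhibitor Socs3 (0.10 ± 0.02) and the receptor chain Ifngr2 (0.05 ± 0.02). The rising gene Ciita is counted in both lists. All list counts are from the fit without Xist and Y chromosome genes. With these in the fit 819 of all genes rose, against 2149, and the lists were not counted again. Of 20 relatives of the GTPases none rose and 1 fell, the atlastin gene Atl2 (-0.03 ± 0.01). Of 10 macrophage markers 3 rose, and of 18 type I interferon genes none passed the test.

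The 10 genes were correlated with each other over the mice as 45 pairs, and with Irf1 and the mean z score of 6 lists as 70 further relations. Every pair was positive and had the smallest p that 100000 permutations can give, 1e-05 (two-sided permutation test), for Pearson's r (permutation p adjusted over all relations 1.24e-05) and for Spearman's rho (1.26e-05). Because Iigp1 has 19 null-like libraries, its Pearson r is given over the other 449, where its 9 pairs had r from 0.58 to 0.83 (median 0.68). Over all libraries the same 9 pairs had r from 0.40 to 0.52 (median 0.43). With the values over 449, r ran from 0.56 (Gbp5 with Gbp6) to 0.94 (Igtp with Irgm2), with a median of 0.69, and rho over all libraries from 0.42 (Gbp6 with Iigp1) to 0.90 (Igtp with Irgm2). The overlapping genes Igtp and Irgm2 share windows of 100 bases, 5.16% of those of Igtp and 3.01% of those of Irgm2, and reads from them may be divided between the 2 genes.

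Igtp with Irgm2 and Irgm1 with Igtp, both inside the Irg family, had the highest r, followed by Gbp5 with Gbp3. Irgm1, whose sequence is not shared with any other gene over 100 bases, had r = 0.88 with Igtp (rho 0.79) and 0.87 with Irgm2 (rho 0.77). Iigp1 reached r = 0.83 with Igtp and 0.80 with Irgm2, but 0.75 with Irgm1, below several pairs of Gbp7 with Irg genes. Among the Gbp genes, Gbp5 and Gbp3, neighbours of Gbp7 on either side, had r = 0.87 (rho 0.85), higher than Gbp5 with Gbp7 itself (r = 0.75) or Gbp3 with Gbp7 (0.72). Gbp7 was tied to genes of other chromosomes as well, with r = 0.83 for Igtp, 0.82 for Irgm2 and 0.79 for Irgm1. Gbp2 and Gbp6 had the lowest values, with a highest r of 0.71 for Gbp2 and 0.67 for Gbp6, both with Gbp7.

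**Figure D3:**
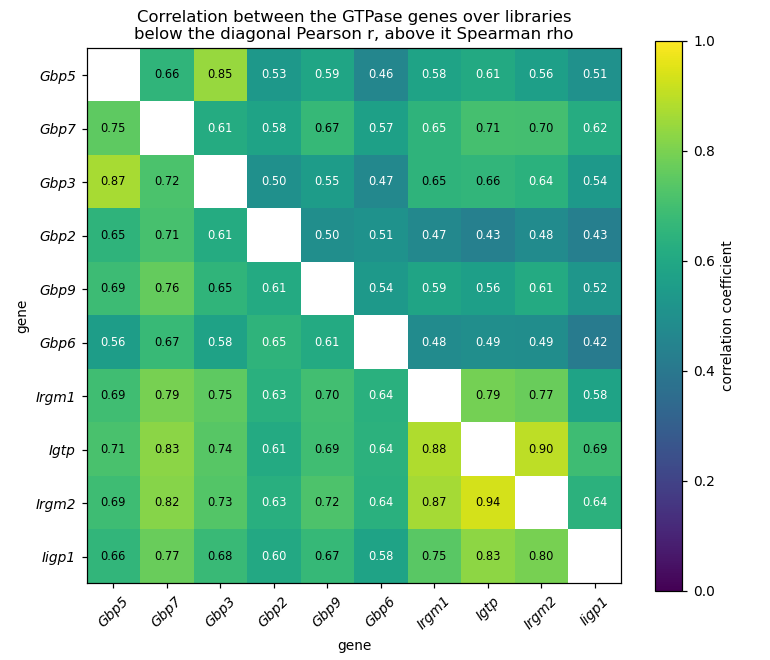
Correlation coefficients (colour and printed value) between the 10 GTPase genes over libraries, with Pearson's r below the diagonal and Spearman's rho above it, over all libraries, or over 449 for Pearson's r with Iigp1. Igtp with Irgm2 (0.94) and Gbp3 with Gbp5 (0.87) are the highest pairs of their families, and the rows of Gbp2 and Gbp6 are the lowest.

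The pairs were recomputed without the highest mice and within parts of the cohort. Without the 2 libraries farthest from the median of the first gene, the 36 pairs of the other 9 genes kept r between 0.50 and 0.92. Without DO094, DO337, DO370 and DO409, a choice made after seeing the data, they lay between 0.47 and 0.92. Over the libraries with (51.5%) and without (48.5%) counts of Y chromosome genes r lay between 0.42 and 0.94 and between 0.66 and 0.93. In 5 blocks of mouse number the lowest r of these 36 pairs was 0.48, and in 5 blocks of library number it was 0.44. With Iigp1, whose low libraries enter the blocks, the lowest r was 0.09 (Gbp6).

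With Xist, Y chromosome genes, mouse number and library number taken into account, the partial correlation was positive in 45 of 45 pairs and lay between 0.39 and 0.93. The 10 pairs on a single chromosome had a median of 0.74 and the 35 on different chromosomes 0.65, a difference that was not tested and that includes the pairs of Iigp1 with its low libraries.

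Against all 18379 other genes, the 9 other members were among the 100 genes of highest rho for each of the 10 genes, and the median rho with all genes lay between -0.009 and 0.002. Outside the 10, the gene most like them on average was Gm12250, an Irg relative beside Igtp also called Irgb10, which GENCODE annotates as a processed pseudogene and RefSeq as protein-coding (mean rho 0.64, 0.46 with the least like and 0.84 with Igtp). It was followed by Gm43802 (0.59), which lies inside Gbp7 and holds 9.59% of its windows of 100 bases, and by Psmb9 (0.59), Tap1 (0.58), Stat2 (0.56), Psmb8 (0.56), Ifi47 (0.56), Nlrc5 (0.55), Gbp4 (0.54) and Trim21 (0.52). These 10 genes have mean levels from 2.82 to 36.4 CPM. Their products are known for antigen processing (Psmb8, Psmb9, Tap1), interferon signalling (Stat2), control of MHC class I genes (Nlrc5) and intracellular antibody binding (Trim21).

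Single members had their own nearest genes. For Gbp2 these were Psmb10 (rho 0.62), B2m (0.54), the light chain of MHC class I, and Zbp1 (0.54), a sensor of nucleic acids. For Gbp9 they were Gbp4 (0.72), Parp14 (0.71) and Ifit2 (0.63), and Gbp9 overlaps Gbp4 and shares 45 windows of 100 bases with it. Nlrc5 (0.51) and Tap1 (0.50) were among the genes nearest to Gbp6. Irgm1 was followed by Gm12250 (0.73), Irf9 (0.68) and Stat2 (0.67), Igtp by Gm12250 (0.84), Psmb9 (0.70) and Tap2 (0.67), and Irgm2 by Gm12250 (0.74), Ifi47 (0.69) and Stat2 (0.68). Gbp5, Gbp7 and Gbp3 each had Gm43802 first (0.74, 0.71 and 0.69) and Gm12250 second, with Tap1 (0.54), Gbp4 (0.63) and Bst2 (0.61), a tether of budding viruses, as the third. Iigp1 was nearest to BC023105 (0.68), Gm12250 (0.66) and F830016B08Rik (0.63), the last a related GTPase gene near it.

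Reads shared with other genes bear on some of these values. Gbp6 shares 3684 of its 6246 windows of 100 bases with Gm43302 and 2266 with Gbp10, so that its count depends on how such reads were divided. By contrast Gbp2, Irgm1 and Iigp1 share none with any gene.

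The 10 genes were then set against Irf1 and the lists. In bulk tissue fewer cells of a type and less RNA per cell cannot be told apart. With the type I interferon score, r ran from 0.51 (Gbp6) to 0.70 (Irgm1) in the 9 genes other than Iigp1. With Irf1 it ran from 0.50 (Gbp2) to 0.73 (Igtp) in these 9 genes. Iigp1 had 0.51 and 0.62 over the 449 libraries without its null-like values. Over all libraries Iigp1 had 0.30 and 0.38, the lowest of the 10 genes for each. Over all libraries, all 50 relations with Irf1 and the type I interferon, MHC class II, T cell and NK cell scores were positive. They passed the permutation test after adjustment for Pearson's r (largest adjusted p = 0.00625, Gbp7 with MHC class II). For Spearman's rho that relation of Gbp7 did not pass (permutation p adjusted over all relations 0.257). The NK cell score had r between 0.43 (Gbp6) and 0.54 (Igtp and Irgm1) in the 9 genes other than Iigp1. The T cell score lay between 0.31 (Gbp6) and 0.45 (Igtp) in these 9 genes, and for Gbp6 it fell to -0.004 in 1 block of mouse number. Iigp1 had 0.58 with the NK cell score and 0.49 with the T cell score over the 449 libraries. Over all libraries Iigp1 had 0.37 and 0.30, the lowest of the 10 genes for each. Summed over the list, the T cell markers ran from 2.52 to 80.1 CPM over libraries (median 10.5), with Cd8a and Cd8b1 at 0 in some. The NK cell markers ran from 1.15 to 108.6 CPM (median 6.02), with Eomes at 0 in some. Klrb1c alone reached 102.3 CPM (median 0.866), and the highest value of any other NK cell marker was 12.0 CPM (Nkg7). The part of these cells in the relations was not tested.

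**Figure D4:**
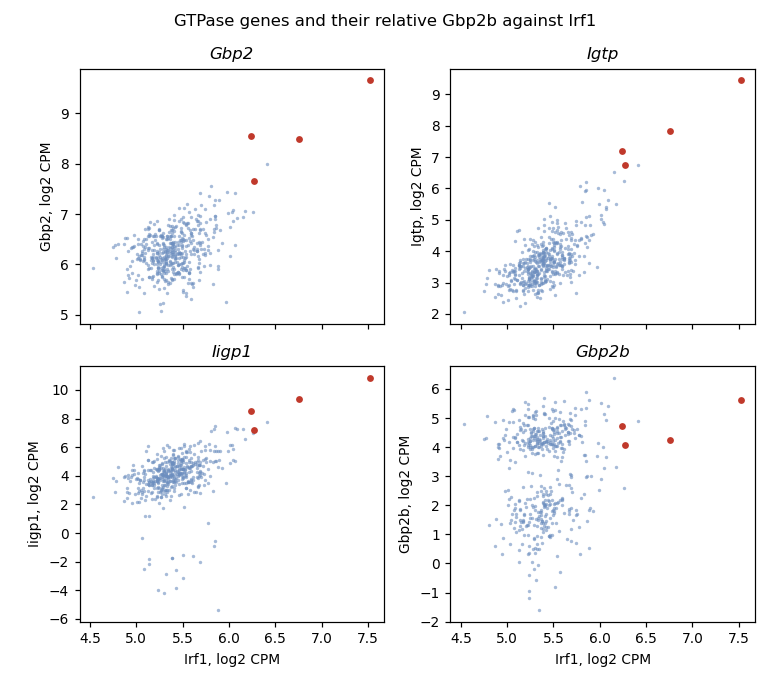
Log2 CPM of Gbp2, Igtp, Iigp1 and the relative Gbp2b (y axes) against log2 CPM of Irf1 (x axes), 1 point per library, with mice DO094, DO337, DO370 and DO409 in red. Gbp2 and Igtp rise along a single band, Iigp1 has libraries far below its band, and Gbp2b falls into separate bands.

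The MHC class II score, also an interferon gamma target through Ciita, was more weakly related. Its r was 0.39 for Gbp9 and 0.38 for Gbp2 but 0.13 for Gbp7 (rho 0.05) and 0.20 for Igtp. It was 0.35 to 0.59 where Y chromosome genes had no counts and 0.09 to 0.31 in those with them, a difference that was not tested, and in 4 of the 10 genes it fell below 0 in at least 1 block of mouse number. The macrophage score was related to 4 genes, Gbp2 (r = 0.26), Gbp9 (0.21), Gbp5 (0.11) and Gbp6 (0.11), of which Gbp2 was the only one to stay above 0 in every block. In libraries without Y counts its r lay between 0.17 and 0.49 over all 10 genes, and in those with them between -0.12 and 0.17, a difference that was not tested. With Xist, Y chromosome genes and both numbers taken into account, the partial r was positive in all 10 (0.06 to 0.30). The adipocyte score passed with Gbp7 (0.15) and Gbp6 (0.11) and was below 0 for both in the libraries without Y counts (-0.10 and -0.08). By Spearman's rho Gbp7 also passed (0.11), Gbp6 did not (rho 0.02, permutation p adjusted over all relations 0.711), and Gbp5 (rho -0.13, 0.0075) and Irgm1 (rho -0.13, 0.00501) passed with a negative sign.

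**Figure D5:**
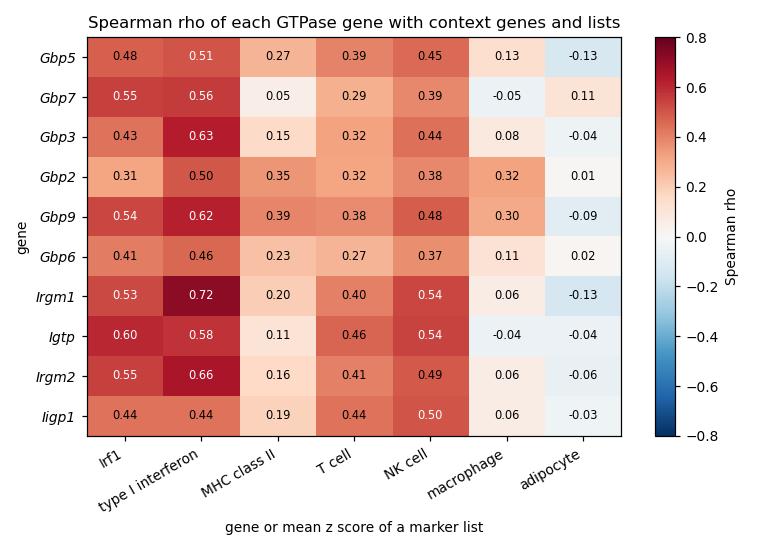
Spearman's rho (colour and printed value) of the 10 GTPase genes (rows) with Irf1 and the mean z scores of 6 gene lists (columns) over all libraries. In most rows values are highest for the columns of Irf1, type I interferon and NK cells, and near 0 for macrophages and adipocytes in most rows.

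The first principal component of the 10 genes held 69.8% of their z-scored variance and the second 7.26%. Without Iigp1 the first held 74.2%. The correlation of log2 CPM with the log10 total count of a library lay between -0.04 and 0.05 for all 10. With the TMM scaling factor it lay between -0.03 and 0.23, highest for Gbp9 (0.23) and Gbp2 (0.198).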

How the data were processed

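Adipose polyA RNA of Diversity Outbred mice was sequenced, 1 library per mouse. The authors deposited expected counts per gene, estimated with EMASE in the GBRS package, and a table of variance-stabilised values on a log2 scale made with DESeq2; both refer to GRCm38. Expected counts need not be whole, and 66.8% of values were whole within 1e-06. They were rounded for the count fits. Genes with at least 10 counts in at least 50% of libraries were kept (18380 of 23180). Counts were scaled by TMM in edgeR 4.0.16 under R 4.3.3, and log2 CPM used a prior count of 2. Slopes on mouse number and library number were tested by edgeR's quasi-likelihood test with Benjamini-Hochberg adjustment over all genes (threshold 0.05), and alternatives used DESeq2 1.42.0 and limma 3.58.1. Mixtures were fitted with mclust 6.1.1, and correlations were tested with 100000 permutations. The statistical steps were tested on simulated data. Named genes were the 10 members, those of the lists, and outside genes by highest mean rho or rho. The members and lists were chosen with earlier results of these data known. Samples formed 1 group, and intervals for counts cover counting error only. Planned results that rest on 1 further gene are not reported here.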

Additional observations from a re-analysis of the deposited data

How the results depend on the processing

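None of the 10 genes was called for mouse or library number under any alternative run. The counts over all genes moved. For mouse number, with Xist and Y genes in the fit, 819 genes rose and 1453 fell, against 2149 and 2213. For library number, against 24 rising and 25 falling, DESeq2 gave 55 falling, no filter 47 and 94, limma 0 and 0, and counts of each gene capped at a high percentile 2 and 1. Of the 10 genes, 10 had separate mixture components with equal variance, against 0 with unequal variance. The share over all genes was not computed with equal variance. Slopes that changed sign had not passed the test. For mouse number these were, with Xist and Y genes, Gbp5 0.00219, Gbp7 0.00528 and Gbp3 0.0149; with capped counts Irgm1 -0.00132, Igtp -0.0109, Irgm2 -0.00356 and Iigp1 -0.00964; and with limma Igtp -0.000653, Irgm2 -0.00183 and Iigp1 -0.0387. For library number they were, with limma, Irgm1 -6.59e-05 and Iigp1 -0.0675; with Xist and Y genes Igtp 0.00852 and Irgm2 0.00294; and with capped counts Igtp 0.000593 and Irgm2 0.00135. The cause was not tested. Iigp1 was null-like in 25 libraries at 1/4 of the median and 18 at 1/20. No paired analysis was possible because all libraries form 1 group.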
